A study of Mus musculus with 8 samples.

Results

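The 6 genes described belong to the IκB family, whose proteins bind NF-κB dimers: *Nfkbia* (IκBα), *Nfkbib* (IκBβ), *Nfkbie* (IκBε), *Bcl3*, *Nfkbiz* (IκBζ) and *Nfkbid* (IκBNS). Below, the family means these 6 genes, which need not be all of it. They were chosen by name and found by matching the Ensembl identifiers of the count table to GRCm38 gene symbols, so that 6 of the 55487 genes in the table are members. All 6 were among the 20610 genes with at least 10 reads summed over the samples. RNA was sequenced from LT-HSCs (long-term hematopoietic stem cells), sorted as 500 LSK CD48-CD150+ cells per sample from mouse fetal liver at E14.5. The embryos were *IκBα* WT (3 samples), HET (3 samples) or KO (2 samples) and came from matings of the targeted *Nfkbia* tm1Bal knockout line, in which mice may also carry the *Gfi1:tomato* reporter; whether an embryo of these samples carried it was not given in the sources used here. A further KO sample had been discarded by the authors for its sequencing quality. WT1, WT2 and HET1 are male embryos labelled total RNA, and WT3, HET2, HET3, KO1 and KO2 are female embryos labelled polyA RNA, so sex and the labelled molecule cannot be told apart, and no KO sample is male. The question asked was whether the transcripts of the other IκB proteins differ when *Nfkbia* is lost.

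IκB proteins carry ankyrin repeats through which they bind NF-κB. The classical members IκBα, IκBβ and IκBε hold NF-κB dimers in the cytoplasm and are degraded after phosphorylation by the IκB kinase, whereas the atypical members BCL3, IκBζ and IκBNS act mainly in the nucleus, where they modulate transcription with the p50 or p52 subunits. *Nfkbia*, *Nfkbie* and several atypical members are textbook NF-κB target genes, which makes the family part of the feedback on the pathway.

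Gene positions come from GENCODE M21 (GRCm38). *Nfkbia* (ENSMUSG00000021025) lies at chr12:55489410-55492647 on the minus strand and *Nfkbie* (ENSMUSG00000023947) at chr17:45555703-45563169 on the plus strand. *Nfkbib* (ENSMUSG00000030595) lies at chr7:28758251-28767512 and *Bcl3* (ENSMUSG00000053175) at chr7:19808462-19822770, both on the minus strand. *Nfkbiz* (ENSMUSG00000035356) is at chr16:55811375-55838899 on the minus strand and *Nfkbid* (ENSMUSG00000036931) at chr7:30421732-30428746 on the plus strand. Exons of *Nfkbib* share 356 of 2169 bases with *Sirt2* and *Ccer2*, and exons of *Bcl3* share 161 of 2475 bases with *Gm16175*, in each case on the opposite strand. The strand setting of the counting was not given, so the values of *Nfkbib* and *Bcl3* are uncertain to that extent; *Ccer2* and *Gm16175* had 0 reads in every sample, while *Sirt2* lay between 57.3 and 93.2 CPM (counts scaled to library size with TMM factors).

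The promoters of *Nfkbia*, *Nfkbie* and *Bcl3* are shown because the first is the deleted gene and the other two had the largest positive fold changes of the family. Each is the 250 bases before the transcript start, 5′ to 3′ on the strand of the gene, from RefSeq on GRCm38.p6. Capitals mark matches, on either strand, to the 10-base κB consensus.
*Nfkbia* (chr12:55492648-55492897, minus strand): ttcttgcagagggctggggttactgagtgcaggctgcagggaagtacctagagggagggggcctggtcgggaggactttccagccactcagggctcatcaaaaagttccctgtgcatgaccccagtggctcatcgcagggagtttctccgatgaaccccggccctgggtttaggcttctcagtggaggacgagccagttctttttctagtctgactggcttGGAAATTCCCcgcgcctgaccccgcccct
*Nfkbie* (chr17:45555450-45555699, plus strand): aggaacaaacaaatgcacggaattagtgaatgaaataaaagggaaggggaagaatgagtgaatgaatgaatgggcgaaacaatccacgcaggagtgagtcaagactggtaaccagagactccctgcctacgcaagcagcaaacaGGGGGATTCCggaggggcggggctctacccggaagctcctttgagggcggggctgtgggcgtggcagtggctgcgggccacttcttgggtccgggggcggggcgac
*Bcl3* (chr7:19822756-19823005, minus strand): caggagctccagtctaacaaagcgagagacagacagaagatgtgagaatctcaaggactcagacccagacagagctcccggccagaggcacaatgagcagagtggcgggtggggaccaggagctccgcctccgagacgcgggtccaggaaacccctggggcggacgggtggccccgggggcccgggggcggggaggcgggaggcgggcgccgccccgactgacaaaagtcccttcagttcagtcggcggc
The match of *Nfkbia*, GGAAATTCCC, lies at -29 to -20 from the start, and that of *Nfkbie*, GGGGGATTCC, at -106 to -97. *Bcl3* had 0 matches before its start and 1, GGGAAGTCCC, at 3 to 12 after it. Of the 3 *Nfkbid* starts listed, 1 had 2 matches, GGGACTTCCC at -226 to -217 and GGAATTCCCC at -181 to -172, and *Nfkbib* had 0. Among all 32851 promoters of the RefSeq table, 7.25% held a match in the 250 bases before the start, and 5 of the 6 members were in the table. A match describes these letters and does not show that NF-κB binds there.

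Before the results, the samples were checked against 8 LT-HSC markers (*Procr*, *Slamf1*, *Kit*, *Ly6a*, *Mecom*, *Hlf*, *Fgd5* and *Ptprc*). Of these, *Kit* and *Ptprc* (CD45) are not specific to LT-HSCs among blood cells. *Ptprc* was at 19.6 CPM in WT3 and 8.36 in HET3, against 45.3 to 256 in the others. The libraries held 17895973 to 21720972 reads counted on genes, and no pair of libraries of the same genotype agreed within sampling noise. The summed CPM of the 8 markers was 1272 in WT1, 1358 in WT2, 1113 in KO1 and 772 in KO2, but 469 in HET1, 409 in HET2, 230 in WT3 and 198 in HET3. *Ly6a*, which encodes the sorting marker SCA1, was at 0 in HET3, and *Mecom*, a regulator of HSCs, was at 1.36 CPM there against 237 in WT1. The summed level of 4 hepatocyte markers was 1128 CPM in WT3 and 547 in HET3, 6.26 to 210 in the KO samples, 77.5 to 145 in HET1 and HET2 and 7.90 to 8.89 in WT1 and WT2. Lists of markers of other blood cells were above 0 in every sample, namely erythroid (293 to 10470 CPM summed over 4 markers), macrophage (22.5 to 171, 5 markers), megakaryocyte (19.5 to 1100, 3 markers) and neutrophil (49.9 to 809, 5 markers). *Ngp*, a neutrophil granule gene, was at 0 in 6 samples, and the hepatocyte gene *Ttr* at 0 in WT1 and WT2. The 4 lymphoid markers together stayed at or under 6.21 CPM, 4 endothelial markers were at 2.79 to 155 CPM, and *Cd48*, gated against in the sort, was at 45.8 to 89.1 CPM. *Kit*, another sorting marker, did not follow the sums, at 148 CPM in WT3, 170 in HET3 and 135 to 231 in the others. It thus made up most of the sums of WT3 and HET3 and a small part of that of WT1 (170 of 1272 CPM). The sums therefore understate how far the other markers differ between these samples. WT3 and HET3 had the lowest LT-HSC and the highest hepatocyte marker sums. The LT-HSC sums of HET1 and HET2 also lay below those of KO1 and KO2. WT3 and HET3 are 2 of the 3 female reference samples. Results include WT3 and HET3 unless stated otherwise, and some are also given without them.

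*Nfkbia*, the gene of the prototypical IκB, was nearly absent from both KO samples. It was at 45.3 CPM in WT1, 67.7 in WT2 and 23.4 in WT3, at 23.4 in HET1, 29.0 in HET2 and 14.4 in HET3, and had 1 read (0.049 CPM) in KO1 and 0 reads in KO2. The KO samples lay below all 6 others, as did 1.79% of the 20610 genes tested. Against the floor of 3 reads per library (0.147 CPM in the KO samples), the level was at least 229.6-fold lower than the WT and HET mean of 33.9 CPM ± 19.5 (SD, n = 6). In edgeR's quasi-likelihood test with sex in the model the log2 fold change was -9.50 ± 0.91 (SE), with an unadjusted p of 4.2e-06 that gave an adjusted p of 0.0862 over all genes; the size of this fitted value depends on the prior count. The exact two-sided permutation test gave p = 0.0714, which is the smallest that 2 samples against 6 allow.

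**Figure D1:**
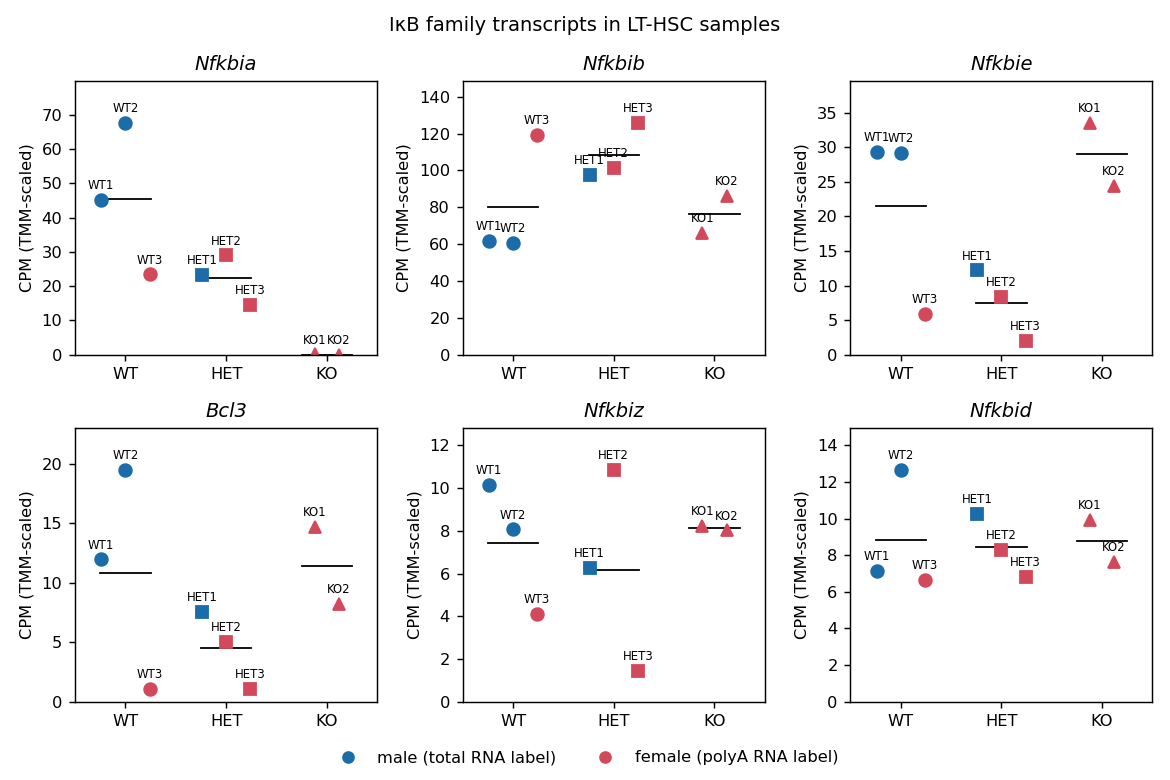
Level of each IκB family gene in every sample, as CPM scaled by TMM (vertical axes, starting at 0), by genotype (horizontal axes). Points are samples, coloured by sex with the RNA label that goes with it, and lines are group means; *Nfkbia* is near 0 in both KO samples, *Nfkbie* is at 24.4 and 33.6 CPM in KO and at 2.02 to 8.37 in the 3 female WT and HET samples, and *Nfkbib* is at 66.1 and 86.4 CPM in KO and at 101.6 to 125.9 in those 3.

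Of the 6 members, 0 passed both thresholds in KO against WT/HET (an adjusted p under 0.05, and a log2 fold change beyond 1 in either direction), as did 0% of all genes tested. At an unadjusted p under 0.05, 2 members were higher in KO (*Nfkbie* and *Bcl3*), beside 15.7% of all genes, and 2 were lower (*Nfkbia* and *Nfkbib*), beside 9.48%. DESeq2 with shrunken fold changes, the analysis named in the study's methods, called *Nfkbie* and *Bcl3* higher, beside 6.56% of all genes, and *Nfkbia* lower, beside 0.607%. No member (0) had both KO values over every WT and HET value, which 3.05% of all genes had. Both lay above the 3 female WT and HET samples for 2 members (*Nfkbie* and *Bcl3*), against 27.1% of all genes, and below them for 2 (*Nfkbia* and *Nfkbib*), against 21.4%. The median log2 fold change of the 6 members was 0.42, and that of all genes tested 0.13. *Nfkbia* is the deleted gene, so its place in the counts of lower members and in this median was set by the genotype.

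*Nfkbie* encodes IκBε, a classical inhibitor that holds mainly RelA and c-Rel dimers and is itself induced by NF-κB. It was at 29.4 CPM in WT1, 29.3 in WT2 and 5.88 in WT3, at 12.2 in HET1, 8.37 in HET2 and 2.02 in HET3, and at 33.6 in KO1 and 24.4 in KO2. The KO samples were thus near the male WT samples and above the 3 female WT and HET samples. The KO mean was 29.0 CPM ± 6.46 (SD, n = 2), against 5.43 ± 3.20 (SD, n = 3) in the female and 23.6 ± 9.90 (SD, n = 3) in the male WT and HET samples. This is a ratio of 5.35 to the female mean and of 1.23 to the male mean. With sex in the model the log2 fold change was 2.41 ± 0.58 (SE, 95% interval 1.10 to 3.73, edgeR adjusted p = 0.148). As no KO sample is male, this fit sets KO against the 3 female reference samples. The male samples bear only on the sex term and the spread. A fit of the female samples alone (2.36, edgeR adjusted p = 0.119) therefore repeats that comparison and is no separate support. The same holds for the other members.

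*Bcl3*, a nuclear IκB that works with p50 and p52 homodimers, was also lower in the female than in the male reference samples. It was at 11.98 CPM in WT1, 19.5 in WT2 and 1.09 in WT3, at 7.55 in HET1, 5.04 in HET2 and 1.07 in HET3, and at 14.7 in KO1 and 8.21 in KO2. The KO samples overlapped the male WT and HET samples and lay above the 3 female ones, of which WT3 and HET3 were near 1 CPM. The log2 fold change in KO with sex in the model was 2.25 ± 0.73 (SE), with a 95% interval from 0.57 to 3.92 and an edgeR adjusted p of 0.153. The KO mean of 11.4 CPM was 4.76 times the female and 0.88 times the male reference mean.

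*Nfkbib* encodes IκBβ, a classical inhibitor that is not a typical NF-κB target. It ran the other way, at 61.6 CPM in WT1, 60.5 in WT2 and 119 in WT3, at 97.6 in HET1, 101.6 in HET2 and 126 in HET3, and at 66.1 in KO1 and 86.4 in KO2. The KO samples lay between the male WT samples and every other reference sample. The log2 fold change with sex in the model was -0.60 ± 0.25 (SE), with a 95% interval from -1.17 to -0.03 and an edgeR adjusted p of 0.186. Within the female samples, in effect the same comparison, it was -0.64 (edgeR adjusted p = 0.127), and the KO mean was 0.66 times that of the reference.

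*Nfkbiz* and *Nfkbid*, the other two atypical members, showed no difference beyond the spread between samples. *Nfkbiz*, whose product is an inducible co-activator of secondary response genes, was at 10.2, 8.06 and 4.11 CPM in WT1 to WT3, at 6.28, 10.9 and 1.42 in HET1 to HET3, and at 8.22 and 8.02 in the KO samples. *Nfkbid* was at 7.16, 12.7 and 6.67 CPM in WT1 to WT3, at 10.3, 8.27 and 6.82 in HET1 to HET3, and at 9.93 and 7.62 in the KO samples. Both KO samples lay within the range of the WT samples for either gene. The 95% interval of the log2 fold change ran from -1.02 to 2.16 for *Nfkbiz* (edgeR adjusted p = 0.628) and from -0.52 to 1.07 for *Nfkbid* (adjusted p = 0.640), so changes of that size remain possible for both.

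When log2 CPM was tested by exact two-sided permutation, without sex, the 5 members other than *Nfkbia* gave p-values from 0.286 (*Nfkbie*) to 0.857 (*Nfkbid*) for KO against all 6 WT and HET samples. For the 2 KO against the 3 female reference samples the smallest possible p is 0.2, which *Nfkbia*, *Nfkbib*, *Nfkbie* and *Bcl3* reached.

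The fold changes of *Nfkbie*, *Bcl3* and *Nfkbib* moved with the model. Without a sex term they were 0.997, 0.57 and -0.31, with an edgeR adjusted p of 0.978 for each. Without WT3 and HET3, which leaves HET2 as the lone female reference, they were 1.76, 1.15 and -0.44, with an adjusted p from 0.683 to 0.695. With the log2 summed LT-HSC marker level added to sex and genotype they were 0.72, 0.35 and 0.17, so that *Nfkbib* changed sign, with an adjusted p of 1. *Nfkbiz* also changed sign in the last pair of these fits, to -0.45 and -0.74. *Nfkbia* stayed at -10.11, -9.92 and -11.02 in the same 3 fits, and with the marker level in the model it was the only gene of the 20610 that was called (adjusted p = 0.00339). The markers themselves were higher in KO with sex in the model, 8 of 8 at an unadjusted edgeR p under 0.05 (15.7% of all genes). A fit that holds their level fixed can thus take out part of a difference by genotype as well as one between samples.

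**Figure D2:**
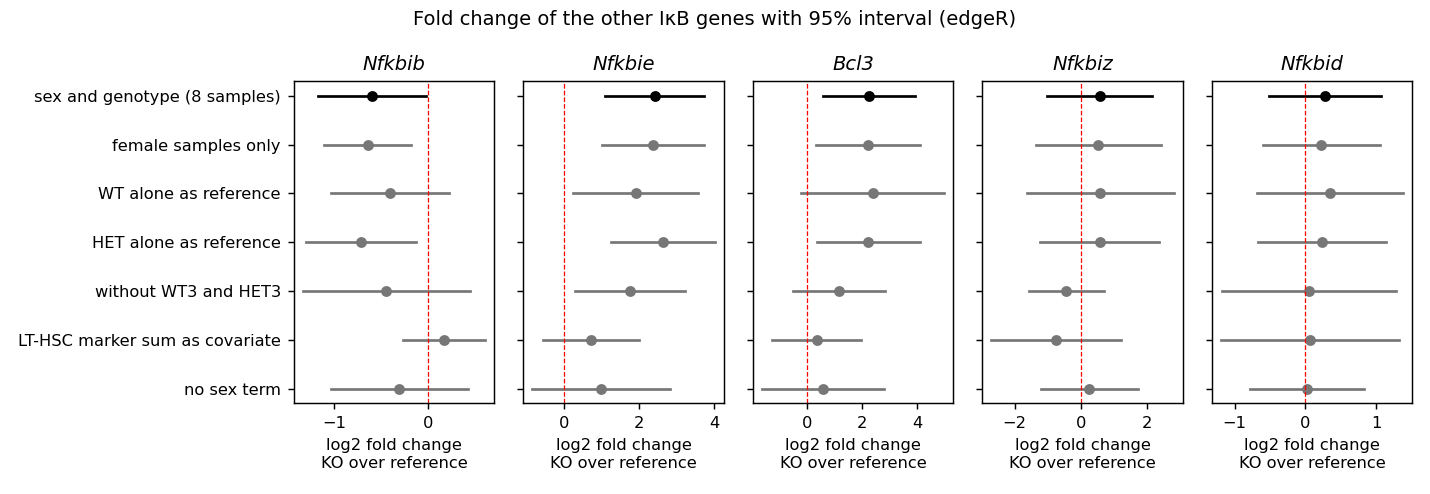
Log2 fold change of the 5 members other than *Nfkbia*, KO over the reference (horizontal axes, each with its own range), with the 95% interval of edgeR, under 7 models (rows). The interval of *Nfkbie* excludes 0 with sex in the model (1.10 to 3.73) and includes 0 with the LT-HSC marker level as a covariate or without a sex term.

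The levels of 3 members ordered the samples much as the marker level did. Ordered by falling summed LT-HSC markers, the samples are WT2, WT1, KO1, KO2, HET1, HET2, WT3 and HET3, and *Nfkbib* was higher at every step of that order, from 60.5 to 126 CPM. *Nfkbie* was lower at every step from KO1 (33.6 CPM) to HET3 (2.02), with WT1 and WT2 at 29.4 and 29.3. *Bcl3* was lower along the same order from 19.5 to 1.07 CPM, except that WT1 (11.98) lay under KO1 (14.7). *Nfkbia* was highest in WT2 and WT1 and lowest in HET3 among the 6 samples that carry the gene. With sex in the model, all 8 LT-HSC markers were higher in KO at an unadjusted p under 0.05 (15.7% of all genes). Their median log2 fold change was 2.76. Both KO samples lay above the 3 female WT and HET samples for all 8 (27.1% of all genes), but above all 6 for 1 (3.05%). The KO marker sums, 1113 and 772 CPM, were below those of WT1 and WT2 (1272 and 1358). At the same threshold 7 of the 8 markers were higher in male samples, beside 18.9% of all genes. Of the 4 endothelial markers 2 were higher in KO (*Pecam1* and *Emcn*), beside 15.7% of all genes, with a median over the 4 of 2.57. The endothelial sums were 139 and 76.8 CPM in KO, 155 and 150 in WT1 and WT2 and 2.79 to 58.9 in the others. In these bulk samples fewer cells of a type and less RNA per cell cannot be told apart, and the part of the marker difference in the values of *Nfkbie*, *Bcl3* and *Nfkbib* was not tested beyond the fit with the marker level.

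**Figure D3:**
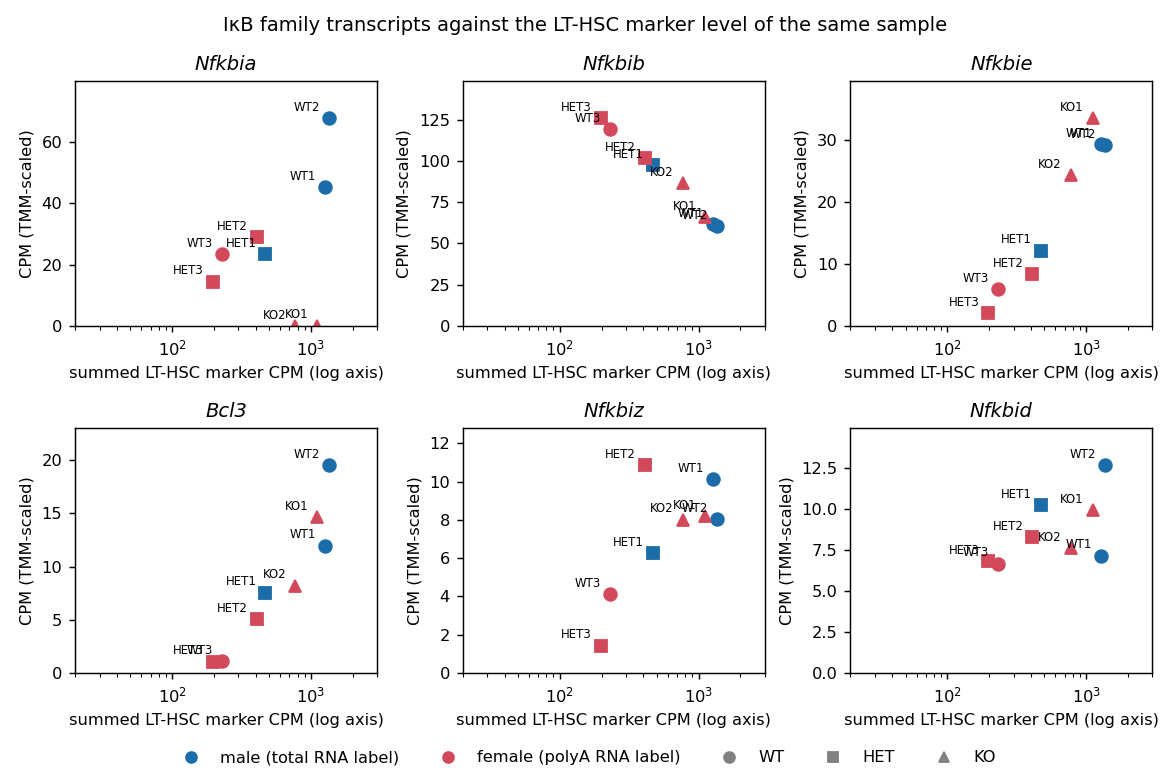
Level of each IκB family gene (vertical axes, CPM) against the summed CPM of the 8 LT-HSC markers in the same sample (horizontal axes, log scale). Each point is a sample, with its shape for genotype and its colour for sex; *Nfkbib* goes from 126 CPM in HET3 to 60.5 in WT2 as the marker sum goes from 198 to 1358, *Nfkbie* and *Bcl3* run the opposite way, and the KO samples of *Nfkbia* lie at 0 apart from the rest.

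The term for male (total RNA label) against female (polyA label) samples in the same fit was of a size like that for KO for *Bcl3* and *Nfkbie*. *Bcl3* was higher in male samples by 2.43 ± 0.69 (log2, SE), *Nfkbie* by 2.12 ± 0.54 and *Nfkbia* by 1.03 ± 0.43, and *Nfkbib* was lower (-0.66 ± 0.22). At an unadjusted p under 0.05, 3 members were thus higher, beside 18.9% of all genes, and 1 lower, beside 13.6%. After adjustment 0 of the 6 passed (lowest adjusted p = 0.0895, *Nfkbie*).

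HET against WT compares the gene dose of *Nfkbia*. The HET mean of *Nfkbia* was 22.2 CPM ± 7.34 (SD, n = 3) and the WT mean 45.5 ± 22.2 (SD, n = 3), a ratio of 0.489. The groups overlapped, since WT3 lay level with HET1 and under HET2. With sex in the model the log2 fold change was -0.69, with a 95% interval from -1.73 to 0.34 (edgeR adjusted p = 0.932). Of the 6 members 0 were called, as were 0% of all genes, and 0 reached an unadjusted p under 0.05, beside 3.62% of all genes. *Nfkbie* (-0.73), *Nfkbib* (0.30), *Bcl3* (0.16), *Nfkbid* (0.11) and *Nfkbiz* (0.02) had intervals that included 0. The replicate numbers were not shown to pair HET with WT. In deviations from the group means, WT2 correlated with HET1 at 0.403 and with HET2 at 0.198. With the number as a block, *Nfkbia* was lower in HET by a log2 fold change of -0.83 (95% interval -1.47 to -0.19) and *Nfkbie* by -1.40 (-2.30 to -0.50). These 2 members then had an unadjusted p under 0.05 (0.0206 and 0.00982), beside 4.39% of all genes that were lower, and adjusted p-values of 0.821 and 0.632 in edgeR, so that 0 were called. Exact two-sided permutation tests gave p = 0.2 for *Nfkbia* and 0.3 to 1 for the others, where 3 samples against 3 cannot go below 0.1. Without WT3 and HET3, HET2 is the lone female sample, so that the HET value comes from HET1 alone and the spread only from WT1 against WT2. The log2 fold change of *Nfkbia* was then -1.28 and that of *Nfkbie* -1.27, as a comparison of these libraries and not of the genotypes. HET1 also had the highest erythroid marker sum, at 10470 CPM against 735 in WT1 and 896 in WT2, and an LT-HSC marker sum of 469 against 1272 and 1358 CPM. All 4 erythroid markers were higher in HET at an unadjusted p under 0.05, as were 371 of the 20610 genes. That comparison was of 3 samples with 3, and the median log2 fold change of the 4 was 1.96. The erythroid sum was 4083 CPM in HET2, and 2423 in HET3 against 2267 in WT3. The part of these markers in the HET values of the members was not tested.

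Levels of different genes can be compared per unit of exon length, as RPKM (CPM per kilobase of exon). On this scale *Nfkbib* and *Nfkbia* made up most of the family in WT and HET samples. *Nfkbib* held 29.5% (WT2) to 81.4% (HET3) of the summed RPKM of the 6 genes, and *Nfkbia* held 44.6% in WT2, 37.0% in WT1 and 12.6% to 23.9% in the other 4. In KO1 and KO2 *Nfkbib* held 57.1% and 71.1%, *Nfkbie* 20.7% and 14.3%, *Bcl3* 11.1% and 5.92%, *Nfkbid* 7.94% and 5.80%, and *Nfkbiz* 3.07% and 2.85%. The share of *Nfkbie* in the 6 other samples was 0.93% to 12.7%, so that both KO samples lay above it; a share rises for every other member when *Nfkbia* falls to 0.

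The summed level of the whole family was 53.3 and 56.0 RPKM in the KO samples and 71.3 to 94.4 in WT and HET samples. Without *Nfkbia* the sums overlapped, at 48.0, 52.4 and 61.0 RPKM in WT, 57.7, 57.3 and 62.3 in HET and 53.3 and 56.0 in KO. The log2 difference of this sum was -0.04 (exact two-sided permutation p = 0.643), and within the female samples -0.14 (p = 0.2, the smallest possible). The smallest p that 2 samples against 6 allow is 0.0714, and within the female samples both KO sums lay below the 3 others.

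**Figure D4:**
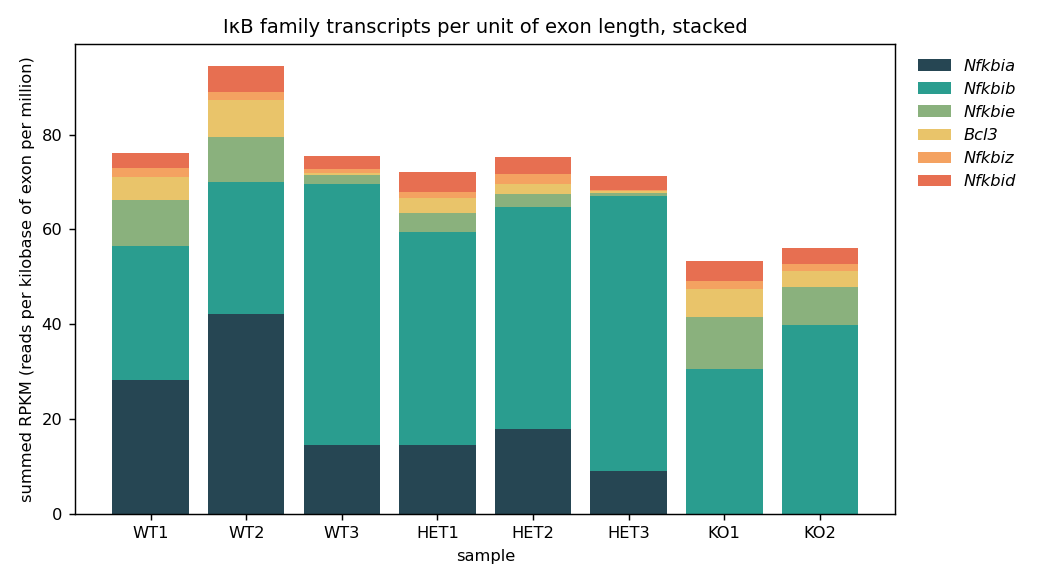
Summed level of the 6 IκB family genes per unit of exon length (vertical axis, RPKM, starting at 0) in each sample, with the members stacked. The KO bars reach 53.3 and 56.0 against 71.3 to 94.4 in WT and HET, and the part other than *Nfkbia* is 48.0 to 62.3 in all 8 samples.

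The 3 classical inhibitors were also set beside the 5 NF-κB subunits (*Rela*, *Relb*, *Rel*, *Nfkb1* and *Nfkb2*), both as summed RPKM. The ratio of classical inhibitor to subunit transcripts was 1.05, 1.44 and 1.45 in WT, 1.37, 1.41 and 1.28 in HET, and 0.685 and 0.808 in KO. The numerator holds the deleted gene, and without *Nfkbia* the ratio was 0.603, 0.679 and 1.16 in WT, 1.06, 1.03 and 1.11 in HET and 0.685 and 0.808 in KO, so that KO overlapped WT. The subunits together were at 60.6 and 59.3 RPKM in KO and at 46.2 to 63.1 in the other samples. The atypical members together were at 11.8 and 8.16 RPKM in KO, at 9.92, 14.9 and 4.10 in WT and at 8.68, 7.73 and 3.62 in HET, so these groups overlapped.

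Among the other genes of the pathway, 0 of 37 tested were called in KO against WT/HET by edgeR. At an unadjusted p under 0.05, 9 were higher and 5 lower, beside 15.7% and 9.48% of all genes, and DESeq2 with shrunken fold changes called 5, all higher, beside 6.56%. Those named below as higher or lower passed that unadjusted threshold. Of the 5 NF-κB subunits 2 were higher and 0 lower (15.7% and 9.48% of all genes), with a median log2 fold change of 1.29. *Relb*, the subunit of the non-canonical pathway, was at 18.2 and 14.7 CPM in KO and at 1.54 to 13.9 in the 6 other samples (log2 fold change 2.65 ± 0.59, SE), and *Nfkb2*, the gene of its partner p52, had a log2 fold change of 1.29 ± 0.47. Without WT3 and HET3 these were 1.92 and 0.77. *Rela*, the main partner of IκBα, was at 121 and 131 CPM in KO and at 106 to 132 in WT and HET, and its log2 fold change was 0.06 (unadjusted p = 0.70).

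Of the 10 genes of the IκB kinases and of IκB degradation, 1 was higher and 2 were lower (15.7% and 9.48% of all genes), with a median log2 fold change of 0.01. *Ikbke*, a non-canonical IκB kinase, was at 19.7 and 13.0 CPM in KO and at 1.1 to 20.4 in WT and HET, and its log2 fold change was 2.99 ± 0.46 (SE). *Chuk*, which encodes IKKα, had a log2 fold change of -0.77 ± 0.25, with 55.9 and 60.1 CPM in KO against 50.5 to 112. The third was *Cul1*, a scaffold of the ubiquitin ligase that marks IκB for degradation (-0.44 ± 0.19).

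Of the 5 IκB-related and IκB-binding genes 0 were higher and 2 were lower (15.7% and 9.48% of all genes), with a median of -0.15. *Nkiras1*, the gene of the IκB-binding protein κB-Ras1, was at 16.69 and 11.65 CPM in KO and at 16.75 to 25.9 in the 6 others, all of them above the KO samples, with a log2 fold change of -0.70 ± 0.25 (SE). *Commd1* had a log2 fold change of -0.42 ± 0.17. *Cactin*, a negative regulator of the pathway, had both KO samples (60.6 and 55.2 CPM) above the 6 others (40.1 to 53.0), with a log2 fold change of 0.22 at an unadjusted p of 0.243.

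Of the 20 feedback and textbook target genes 17 passed the filter on low counts, and 6 were higher and 1 was lower (15.7% and 9.48% of all genes), with a median of 0.84. The lowest p-values were those of *Tnip1*, whose product binds A20 (1.67 ± 0.36, SE), and *Cyld*, a deubiquitinase that restrains the pathway (0.59 ± 0.17). The other members higher in KO were *Traf1*, *Icam1*, *Birc3* and *Bcl2l1*, and *Sod2* was lower. *Tnfaip3*, the gene of A20, was at 7.44 and 4.52 CPM in KO and at 0.31 to 8.93 in WT and HET, and its log2 fold change was 0.84 ± 1.2 (SE). The chemokine gene *Cxcl10* had both KO samples (0.93 and 1.03 CPM) above the others (0 to 0.91), a difference of few reads with an unadjusted p of 0.539. With the LT-HSC marker level in the model 0 of these pathway genes were called.

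**Figure D5:**
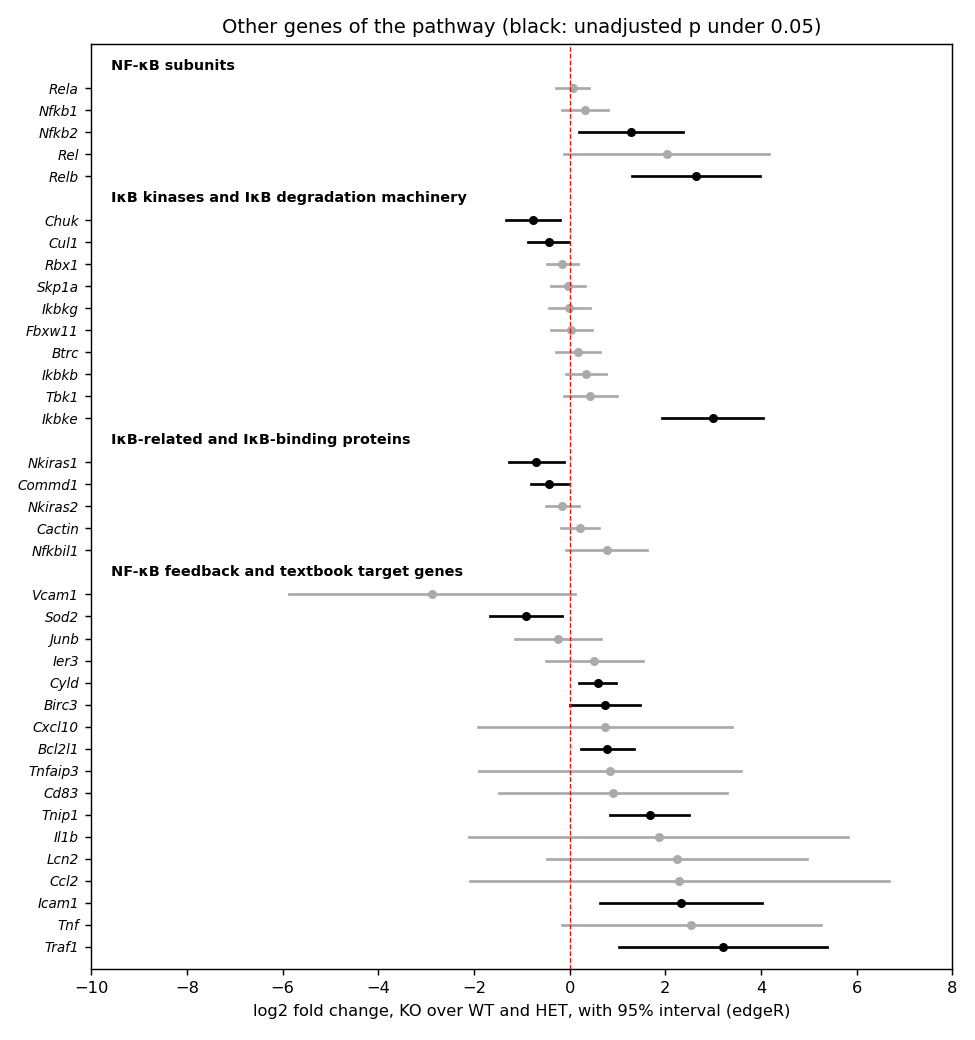
Log2 fold change in KO over WT and HET with its 95% interval (horizontal axis) for the 37 other genes of the pathway that were tested, in 4 lists (rows). Black marks an unadjusted p under 0.05; *Relb* (2.65) and *Ikbke* (2.99) lie to the right, *Chuk* (-0.77) and *Nkiras1* (-0.70) to the left, and 0 genes passed after adjustment.

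The genes whose log2 CPM ran most like each member over the 6 WT and HET samples were found among 10098 genes with a mean of at least 5 CPM, as a description over 6 points that share the libraries and their marker differences. They were *3010003L21Rik* (Pearson's r = 0.998), *Slc41a1* and *Zfp319* for *Nfkbia*, *Tcea1*, *Polr1e* and *Pgm2* for *Nfkbib* (0.9996 to 0.9997), and *Dab2ip*, *Rtl8c* and *Sgce* for *Nfkbie* (0.999). For *Bcl3* they were *Rsf1* (0.998), *Hdac5* and *Elf4*, for *Nfkbiz* *Nfkb2* (0.984), *Fzd9* and *Arhgap23*, and for *Nfkbid* *Deaf1* (0.973), *Slc9a8* and *Itpr1*. Among the members themselves, *Nfkbia* ran with *Nfkbie* (0.923) and *Bcl3* (0.862) and against *Nfkbib* (-0.935), and the r of *Nfkbiz* with *Nfkbid* was 0.431, the nearest to 0 among the pairs of members.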

How the data were processed

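LT-HSCs of 3 *IκBα* WT, 3 HET and 2 KO fetal livers were compared, with groups, sex and replicate numbers from the labels. The members and gene lists were chosen with earlier results of these data known.

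The authors deposited raw counts per gene. Per the methods and processing notes, reads were trimmed with Trim Galore 0.6.6, aligned with STAR 2.7.8 to GRCm38 and counted per Ensembl gene from unique alignments, which lowers genes with near-identical copies. The strand setting is not given in the sources used here. A table of log2 values (variance-stabilizing transformation, corrected for sex), also deposited by the authors, served only as an alternative scale.

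Genes with at least 10 reads summed over the 8 samples (20610) were tested with edgeR 4.0.16 (quasi-likelihood, legacy fit, TMM) in R 4.3.3, modelling sex and genotype against a joint WT and HET reference, as in the study's methods. Calls needed a Benjamini-Hochberg adjusted p under 0.05 and a log2 fold change beyond 1 in either direction. Alternatives were DESeq2 1.42.0, also with apeglm 1.24.0, and other normalizations, filters, references and sets of samples. HET was compared with WT over 6 samples. CPM values are TMM-scaled, RPKM divides them by the exon length, and log2 CPM has a prior count of 2. Depth was 17895973 to 21720972 reads, so that 3 reads, the floor used here, are 0.125 to 0.178 CPM, for counting error only. The edgeR fits were also run on simulated counts with 1 dispersion for all genes and no sex or marker differences. Such counts are simpler than these data, so that run does not vouch for the fits here. Named genes are the 6 members, those of the pathway lists called or with both KO samples beyond the 6 others, otherwise the 2 with the lowest p in each list, and the 3 most alike for each member; others, such as *Rela* and *Tnfaip3*, were chosen after their values were seen. The LT-HSC list holds 8 markers, and 1 further marker is not reported here.

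WT and HET samples of the same number deviated together from their group means (correlations of 0.293, 0.198 and 0.590). So did WT2 with HET1 (0.403) and WT1 with HET2 (0.226), so the correlations do not show that the numbers pair HET with WT. The block changed 0 calls in HET against WT.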

Additional observations from a re-analysis of the deposited data

How the results depend on the processing

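The loss of *Nfkbia* in KO kept its direction under all 23 alternatives (log2 fold change -11.8 to -2.27). So did *Nfkbie* (0.72 to 2.88), *Bcl3* (0.35 to 3.40) and *Nfkbid* (0.02 to 0.56). The lowest sizes of *Nfkbia* are on the deposited log2 scale. Many of these alternatives keep the comparison of KO with the female reference samples, so a kept direction there adds little. *Nfkbie*, for example, stayed at 2.41 without WT1 and without WT2. It was 0.997 without a sex term, 1.76 without WT3 and HET3 and 0.72 with the LT-HSC marker level as a covariate. *Nfkbib* reversed only with the LT-HSC marker level as a covariate (0.17), and *Nfkbiz* reversed with it (-0.74), without WT3 and HET3 (-0.45) and with the replicate block (-0.43). These 2 alternatives on markers were chosen after seeing the data. The cause of these changes was not tested.

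Calls depended on the test. In KO against WT/HET, 0 genes were called by the test used throughout, against 1855 by the DESeq2 Wald test, 1476 with apeglm, 1106 without a filter on low counts, 1 with the edgeR version 4 fit, 1 with the marker covariate and 0 to 730 with each sample left out (8 without HET1, 730 without HET2). At an unadjusted p under 0.05 there were 5196 genes. Of the members 3 were called by either DESeq2 test and without the filter, 1 with the marker covariate and 0 to 2 with a sample left out. They were *Nfkbia* (-9.86 by the Wald test, -9.42 with apeglm, -9.50 without the filter, -11.02 with the covariate, -11.8 to -8.66 with a sample left out), *Nfkbie* (2.39, 2.07 and 2.41 under the first 3) and *Bcl3* (2.22, 1.65 and 2.24 under the first 3, and 1.77 to 3.40 with a sample left out, called at 3.40 without HET2). *Nfkbie* ran from 2.01 to 2.88 and *Nfkbib* from -0.81 to -0.42 with a sample left out. Without HET1, *Nfkbia* was called, and without HET2 *Nfkbia* and *Bcl3*. Of the other pathway genes 6 were called by the Wald test, 5 with apeglm, 5 without the filter and 0 to 4 with a sample left out (4 without HET2).

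In HET against WT, 0 genes were called, 747 had an unadjusted p under 0.05, and 64 were called by the Wald test, 131 without the filter, 1964 without WT3 and HET3 and 0 to 135 with a sample left out (135 without HET2). Without WT3 and HET3, 2 members were called, *Nfkbia* (-1.28) and *Nfkbie* (-1.27), but there HET1 is set against WT1 and WT2 alone and the spread is that of WT1 against WT2, so these calls and the 1964 describe the libraries. Some signs changed. *Nfkbib* was -0.074 without HET1. *Bcl3* was -1.25 without a sex term, -0.38 with the block, -1.06 without WT3, also without WT3 and HET3, and -0.68 without HET2. *Nfkbiz* was -0.0074 by the Wald test, -0.0079 with RLE, -0.27 without a sex term, -1.09 with the block, -0.54 without WT3, also without WT3 and HET3, and -0.93 without HET2. *Nfkbid* was -0.063 without a sex term and -0.031 without WT1. With a sample left out the values ran from -0.074 to 0.678 for *Nfkbib*, -1.06 to 1.48 for *Bcl3*, -0.93 to 0.58 for *Nfkbiz* and -0.031 to 0.32 for *Nfkbid*.

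The log2 difference of the summed other 5 members was -0.04, and 0.11 with library size only and 0.025 without WT3 and HET3; it was -0.09 to -0.005 with a sample left out. The replicate block in KO against WT/HET left 0 genes called and 589 genes at an unadjusted p under 0.05, and there the numbers do not pair the samples (WT1 with KO1 0.278, WT2 with KO2 -0.346, HET1 with KO1 0.244, HET2 with KO2 -0.124). It changed no other call of the members. The 5 members other than *Nfkbia* were above the floor of 3 reads in every sample, so that depth limits the value of *Nfkbia* in KO and not theirs.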
